A study of Mus musculus with 12 samples.

Results

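The interferon response and the antigen presentation machinery were followed here as 33 genes taken by name from a fixed list. Of these, 15 belong to antigen presentation (class I and class II chains, peptide loading, the immunoproteasome and their transactivators) and 18 to the interferon response (transcription factors and induced effectors). All 33 were found in both deposited count tables, which share 44760 genes, and all 33 passed the filter on low counts in every fit. The libraries came from the hippocampus of male APPswe/PS1dE9 mice on a C57BL/6 background (N9B6). Both transgenes were present in every group: human amyloid precursor protein with the Swedish mutation and presenilin 1 without exon 9, which together lead to amyloid plaques. No group lacked them, so every comparison below is within the transgenic strain. Pumps under the skin delivered nicotine hydrogen tartrate, at a dose labelled 48 mg/kg/h, or saline for 14 days. There were 4 groups of 3 libraries, saline and nicotine at an age of 7 months and the same infusions at 18 months. The labels do not say that the libraries of a group came from separate mice, so p-values measure the spread between libraries, which may in part be technical.

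Interferons bind receptors whose kinases activate STAT proteins, and a complex that holds STAT2 and IRF9 then switches on a large set of antiviral genes. The same signals raise the parts of antigen presentation: the immunoproteasome cuts proteins, the TAP transporter carries the peptides into the endoplasmic reticulum, and class I molecules show them on the cell surface. Class II molecules, which present engulfed material, are built with the help of the invariant chain Cd74. In brain, microglia and the macrophages at its borders are the main cells known for class II and for a strong interferon response.

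The 7-month libraries held 25071195 to 29245972 counts each and the 18-month libraries 21260068 to 23715015. Levels are given in CPM, counts scaled to a common library total, after TMM scaling, a correction for differences in composition between libraries. Markers of the labelled brain tissue were present: the neuronal genes Rbfox3, Snap25, Syt1, Slc17a7 and Gad1 summed to 4192 to 5372 CPM and 12 microglial markers to 428.0 to 714.9 CPM. Of the 8 interferon genes looked for (Ifnb1, Ifna1, Ifna2, Ifna4, Ifng, Ifnk, Ifne and Ifnz), 3 had no count in any library and none passed the filter on low counts. T and NK cell markers summed to 0.785 to 1.45 CPM, and B and plasma cell markers to 0.236 to 1.42 CPM. Saline library 2 at 7 months stood apart from the rest, and nicotine library 1 at 7 months held 6133 CPM of choroid plexus markers and 171.6 CPM of pituitary hormone transcripts. The 2 ages sit in separate tables, and their samples carry different description prefixes, so age and preparation cannot be told apart. In bulk tissue, fewer cells of a type and less RNA per cell cannot be told apart either.

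Compared per kilobase of the longest annotated transcript, B2m was the most abundant member, with a mean of 98.1 CPM per kb over the 12 libraries. B2m encodes the invariant light chain of class I molecules. Ifi27, an interferon-induced mitochondrial protein, followed with 44.1 CPM per kb, then the class I heavy chain H2-D1 with 24.7, the immunoproteasome subunit Psmb10 with 24 and the class I heavy chain H2-K1 with 19.3 CPM per kb. At the other end stood the class I transactivator Nlrc5 with 0.203 CPM per kb, below the antiviral enzyme Rsad2 (viperin) with 0.372 and the class II transactivator Ciita with 0.551 CPM per kb. Psmb8 (2.59 CPM per kb) and Psmb9 (0.690 CPM per kb), which sit beside Psmb10 in the same immunoproteasome, had lower levels. The lengths used were 1907, 2884 and 1311 nt for Psmb8, Psmb9 and Psmb10. Where a gene is mostly read from a shorter transcript than its longest, its value per kb is too low. Low members rested on few reads: Isg15 had 18 to 64 counts per library, Nlrc5 15 to 62, H2-Eb1 14 to 131 and H2-Aa 13 to 112.

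All 3 class I chains had their lowest level of the 12 libraries in the same library, saline library 2 at 7 months. B2m read 98.0, 60.3 and 110.2 CPM in 7-month saline libraries 1, 2 and 3, and 107, 95.9 and 80.1 CPM in the nicotine libraries of that age. For H2-K1 the saline libraries gave 41.6, 14.9 and 37.6 CPM and the nicotine libraries 39, 35.3 and 34.2 CPM. For H2-D1 they gave 56.9, 20.1 and 54.5 CPM and 55.2, 46.9 and 49.9 CPM. Apart from saline library 2, the saline and nicotine libraries overlapped in all 3 chains. At 18 months H2-K1 read 39.1, 38.8 and 42.8 CPM in saline and 42.7, 35.1 and 32.5 CPM in nicotine, and H2-D1 read 58.1, 52.3 and 62.5 CPM and 56.5, 56.6 and 52.8 CPM. No library of that age stood apart in the class I chains, and B2m ranged only from 71.2 to 86.8 CPM.

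The 3 class I promoters are printed here because their genes were all lowest in saline library 2 at 7 months. Those of 3 induced genes are printed beside them because they hold the GAAA repeats to which interferon-activated factors are known to bind. Among the 7-month libraries, saline library 2 was the lowest for 60.6% of the 33 members and for 38.3% of all genes tested. The windows are the 250 bases before the start of each gene, from RefSeq on GRCm38.p6, found for 25 of the 33 members, and are written in the direction of transcription. Capitals mark matches, on either strand, to the double GAAA motif (GAAA, any 2 bases, then GAAA again) in B2m, Ifit1, Ifit3 and Isg15, or to GAANNGAAA, in which N is any base, in H2-K1 and H2-D1. On the opposite strand GAAA reads TTTC. B2m lies at chr2:122147437-122147686 on the plus strand, H2-K1 at chr17:34000348-34000597 on the minus strand, H2-D1 at chr17:35262844-35263093 on the plus strand, Ifit1 at chr19:34640639-34640888 on the plus strand, Ifit3 at chr19:34583279-34583528 on the plus strand and Isg15 at chr4:156200819-156201068 on the minus strand.
B2m: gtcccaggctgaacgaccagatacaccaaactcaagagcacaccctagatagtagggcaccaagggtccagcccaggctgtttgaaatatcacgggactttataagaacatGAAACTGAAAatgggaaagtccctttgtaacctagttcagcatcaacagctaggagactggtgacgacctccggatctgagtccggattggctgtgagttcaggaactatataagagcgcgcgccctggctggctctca
H2-K1: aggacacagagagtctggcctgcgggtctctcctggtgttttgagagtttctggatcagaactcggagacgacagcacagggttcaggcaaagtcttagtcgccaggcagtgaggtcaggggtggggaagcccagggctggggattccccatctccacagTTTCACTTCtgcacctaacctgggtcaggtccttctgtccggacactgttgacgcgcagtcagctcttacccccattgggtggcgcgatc
H2-D1: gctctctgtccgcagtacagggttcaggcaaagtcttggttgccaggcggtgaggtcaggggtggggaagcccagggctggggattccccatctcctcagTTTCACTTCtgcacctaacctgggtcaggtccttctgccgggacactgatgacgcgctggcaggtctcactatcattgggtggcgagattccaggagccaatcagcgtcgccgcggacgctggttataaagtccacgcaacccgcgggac
Ifit1: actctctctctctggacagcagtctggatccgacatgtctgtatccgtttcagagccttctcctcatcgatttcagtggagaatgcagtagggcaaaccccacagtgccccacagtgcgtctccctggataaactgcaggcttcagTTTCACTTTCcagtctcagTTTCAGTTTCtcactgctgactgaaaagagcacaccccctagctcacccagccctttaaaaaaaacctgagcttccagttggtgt
Ifit3: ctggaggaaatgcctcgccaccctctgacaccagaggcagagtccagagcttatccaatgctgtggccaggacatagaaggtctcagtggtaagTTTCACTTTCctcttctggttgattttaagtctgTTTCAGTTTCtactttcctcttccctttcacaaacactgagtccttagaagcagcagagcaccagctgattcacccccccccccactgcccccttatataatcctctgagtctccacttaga
Isg15: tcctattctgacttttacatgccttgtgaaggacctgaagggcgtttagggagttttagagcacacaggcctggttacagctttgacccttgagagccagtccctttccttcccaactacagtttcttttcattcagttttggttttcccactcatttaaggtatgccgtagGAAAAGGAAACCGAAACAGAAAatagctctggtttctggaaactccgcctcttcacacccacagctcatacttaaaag

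The double GAAA motif was found in the windows of 7 of the 25 matched members (B2m, Stat2, Ifit1, Ifit3, Isg15, Bst2 and Rsad2), or 28.0%, against 3.46% of the windows of 27025 genes. The shorter GAANNGAAA, looked for after the sequences had been seen, was found in 4 of 25 (16.0%), against 7.3% of all windows, and H2-K1 and H2-D1 carry it in the same 9 letters. TTCNNNGAA, the form bound by STAT dimers, was found in 5 of 25, namely Psmb8, Irf1, Irf8, Ifit2 and Bst2, against 8.13% of all windows. Matches of the double GAAA motif and GAANNGAAA can overlap, as in Stat2, but do not in Isg15. Isg15 has 3 overlapping matches of the longer motif in 1 stretch, and Ifit1 and Ifit3 have 2 each. The genes with the longer motif did not share 1 course in the data: at 18 against 7 months Isg15 passed the test as lower in both infusions, while Ifit1 and Ifit3 passed in neither. A match describes the letters in the window and nothing more.

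H2-Aa and H2-Eb1 had the widest range of all members, and the class II chains and Cd74 shared their highest and lowest library in 18-month saline. Cd74, the invariant chain, read 9.83, 4.23 and 9.72 CPM in 7-month saline, 11.1, 7.87 and 4.77 CPM in 7-month nicotine, 9.65, 17.6 and 4.62 CPM in 18-month saline and 6.86, 7.74 and 7.56 CPM in 18-month nicotine. H2-Aa, the alpha chain of the I-A molecule, read 3.80, 1.32 and 2.21 CPM, 3.77, 1.45 and 1.32 CPM, 1.70, 4.86 and 0.589 CPM and 1.95, 1.54 and 1.61 CPM in the same order. Within 18-month saline, library 2 was the highest and library 3 the lowest of the 6 libraries of that age for all 4 genes (Cd74, H2-Aa, H2-Ab1 and H2-Eb1), so both extremes lay in 1 group. H2-Ab1, the beta chain of I-A, went from 3.69 CPM in that library 2 to 0.952 in library 3, and H2-Eb1, the beta chain of I-E, from 2.61 to 0.635 CPM. Over all 12 libraries the highest level was 8.25 times the lowest for H2-Aa, 7.15 times for H2-Eb1, 4.33 times for H2-Ab1 and 4.17 times for Cd74. At 7 months, saline library 1 and nicotine library 1 carry a description prefix that the other libraries of that age do not. They were the highest for 2 of the 4 genes each, and nicotine library 3 was the lowest for 3. The transactivator Ciita did not share this spread, at 2.77, 3.78 and 4.80 CPM in 18-month saline, where the highest level fell in library 3.

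Markers of several other cell types were read beside these libraries. B and plasma cell markers (5 genes in the tables) summed to 0.90 CPM in 18-month saline library 2, against 0.236 to 0.424 CPM in the other libraries of that age, with Ms4a1 at 0. Border macrophage and monocyte markers (7 genes) summed to 3.02 CPM there, within the range of 2.98 to 4.99 CPM at that age. The 12 microglial markers summed to 614.1 CPM there and to 683.1 CPM in library 3. Red blood cell markers (5 genes) summed to 59.4, 128.7 and 35.4 CPM in 18-month saline libraries 1, 2 and 3 and neutrophil markers (5 genes) to 1.47, 2.07 and 0.499 CPM, in the same order as the class II genes. Choroid plexus markers (6 genes), at 27.4, 89.7 and 20.2 CPM, and oligodendrocyte markers (5 genes), at 3955, 5147 and 2911 CPM, had that order too. Astrocyte markers (5 genes) did not, at 2511, 2343 and 2756 CPM. Dendritic cell markers (6 genes) summed to 38.7, 41.0 and 43.4 CPM, highest in the library with the lowest class II levels. The part of any of these cells in the class II levels was not tested.

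**Figure D1:**
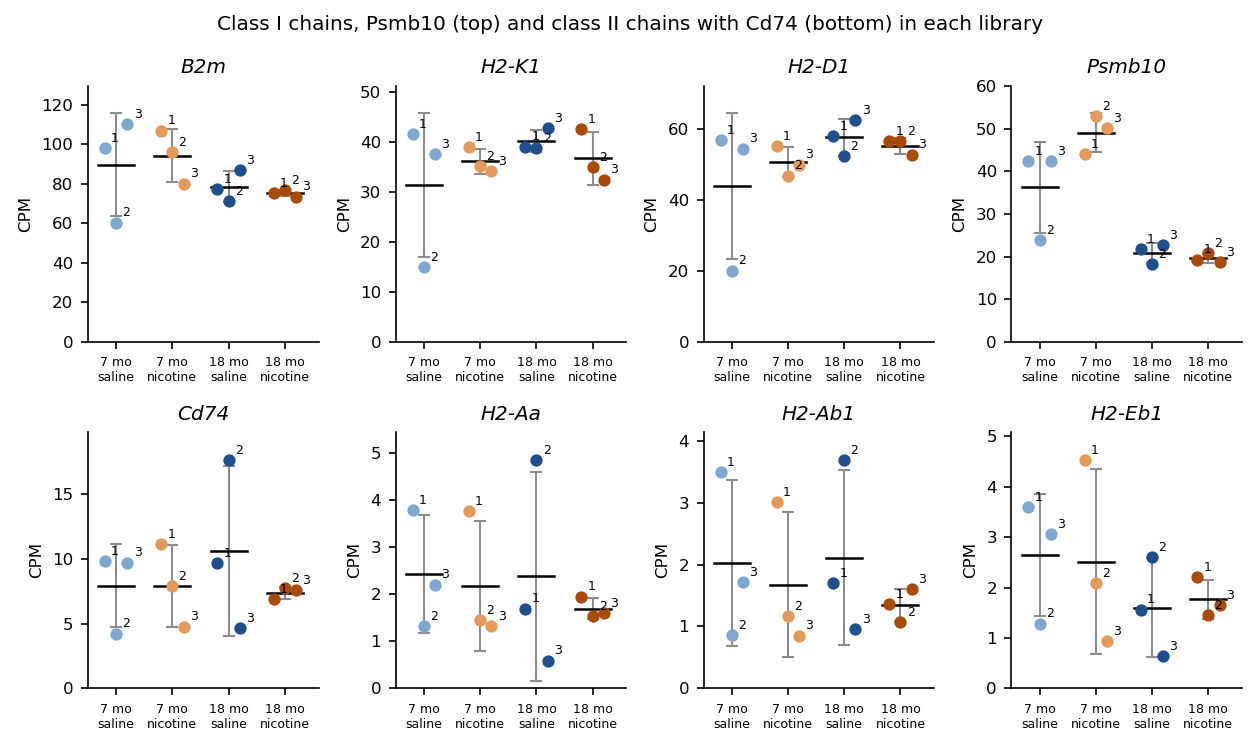
Levels in CPM of the class I chains and Psmb10 (top) and of the class II chains and Cd74 (bottom) in each of the 12 libraries. Points are libraries with their numbers, black lines are group means and grey bars the SD (n = 3). The class I chains and Psmb10 are lowest at 7 months in saline library 2, and at 18 months the highest and the lowest library for each class II gene are both in saline.

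In saline library 2 at 7 months, 20 of the 33 members (60.6%) had their lowest level of the 6 libraries of that age, against 38.3% of all genes tested. Its departure, the log2(CPM + 0.5) minus the mean of the other 5 libraries of that age, had a median of -0.42 over the members, -1.30 over the class I chains and -0.04 over all genes. The interferon-induced virus tether Bst2 read 5.29, 1.86 and 6.43 CPM in the saline libraries and 9.10, 5.14 and 5.35 CPM in the nicotine libraries. Only 6 of 33 members lay above 0 there, the transactivators among them: Nlrc5 was highest there at 1.13 CPM, against 0.543 to 0.673 in the other 5 libraries, and Ciita was highest at 4.04 CPM. Of the other members with long transcripts, Stat2, Ifit2 and Rsad2 were also highest in it, at 36.5, 5.94 and 1.59 CPM. Tap1, Tap2, Irf7, Irf8 and Oasl2, also long, had their lowest level of that age in it. Across members, the departure of this library followed transcript length with a Spearman rho of 0.71 (n = 33), and across all 15453 genes with a length the rho was 0.59. These genes share libraries and depth, and the values are descriptions. The 12 microglial markers summed to 428.0 CPM in it, against 565.3 to 688.8 CPM in the others, with Tyrobp at 14.6 CPM against 26.4 to 43.5. The part of transcript length or of fewer microglia in the low class I level was not tested.

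**Figure D2:**
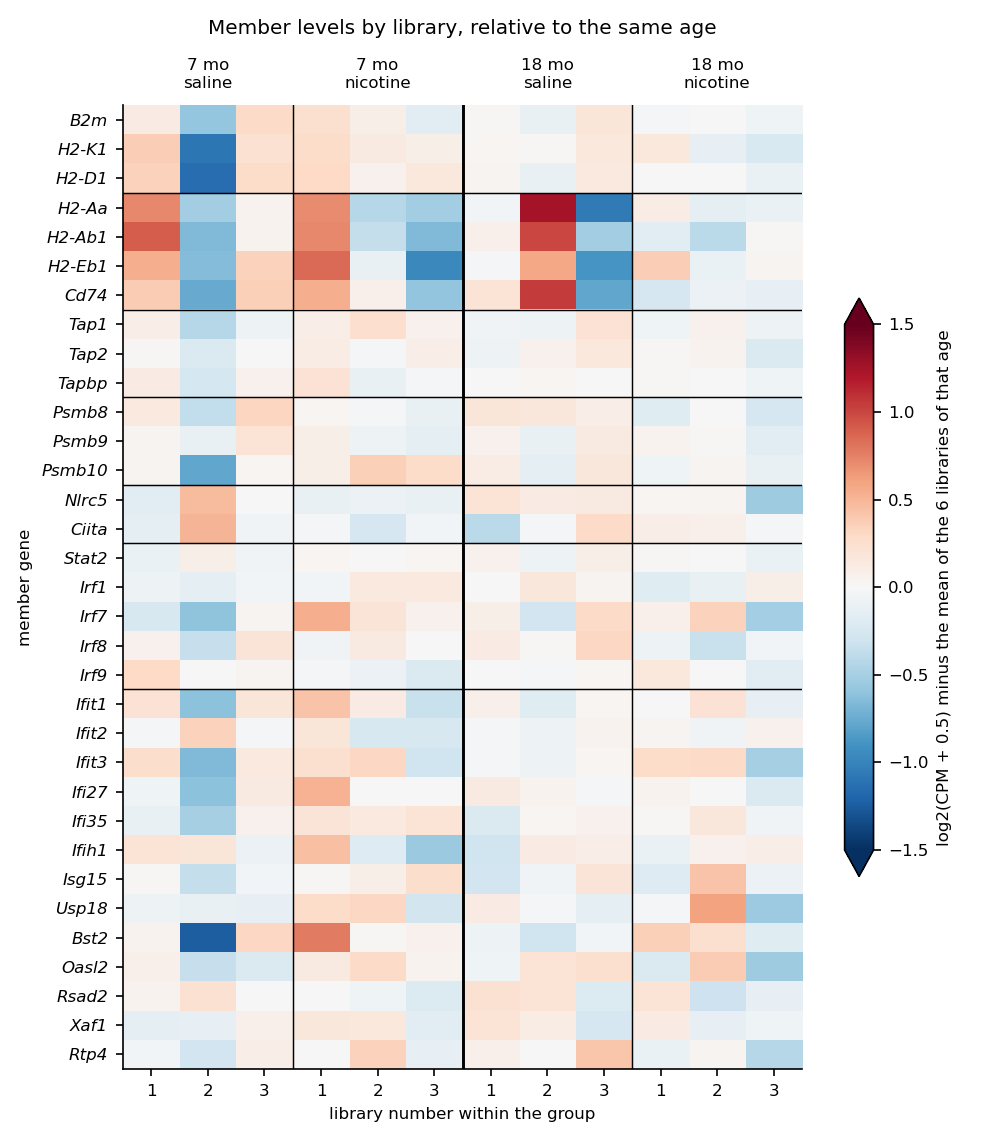
Level of each of the 33 members in each library as log2(CPM + 0.5) minus the mean of the 6 libraries of that age, with blue for lower and red for higher. The column of 7-month saline library 2 is blue for most members and deepest for Bst2, H2-D1 and H2-K1, and the class II rows are red and blue within the same groups.

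Nicotine was first compared with saline at 7 months, from the 6 libraries of that age. None of the 33 members passed the threshold (edgeR quasi-likelihood test, Benjamini-Hochberg adjusted p under 0.05 over all genes tested), where 0.0114% of the 17596 genes tested did. DESeq2 called 0 members as well, at a background of 0.273%, and 1 member, Irf7, had an unadjusted p under 0.05 in edgeR, against 6.5% of all genes. The median log2 fold change of the members was 0.12, with 21 of 33 above 0 (63.6%, against 48.7% of all genes), and the median of all genes was -0.01. The interferon response members had a median of 0.16 with 14 of 18 above 0, and the antigen presentation members -0.01 with 7 of 15 above 0. Without saline library 2 the median of the members was -0.06, with 14 of 33 above 0. Leaving out nicotine library 1 too took it to -0.15, with 12 of 33 above 0, so the sign of the members' median turned with that 1 saline library.

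Irf7, a transcription factor that amplifies the type I interferon response, had the smallest p at 7 months. Its level was 1.80, 1.28 and 2.28 CPM in saline and 3.46, 2.61 and 2.33 CPM in nicotine, so the groups did not overlap but nicotine library 3 and saline library 3 nearly met. The log2 fold change was 0.64 (SE 0.27), adjusted p = 0.656, with a 95% interval of 0.00 to 1.27. Psmb10 read 42.5, 23.9 and 42.4 CPM and 44.1, 53.0 and 50.1 CPM, higher in each nicotine library than in any saline library, with 0.43 (SE 0.21), adjusted p = 0.656. Without saline library 2 the Psmb10 value was 0.21 (SE 0.09).

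Irf9, the DNA-binding partner of STAT2, was the 1 member of the 5 with groups apart that lay lower in nicotine. It read 19.97, 16.2 and 16.7 CPM in saline and 15.9, 15.2 and 13.9 CPM in nicotine, a log2 fold change of -0.25 (SE 0.13), adjusted p = 0.656. Ifi35, an interferon-induced leucine zipper protein, read 4.92, 3.65 and 5.61 CPM and 6.16, 5.94 and 6.24 CPM, with 0.36 (SE 0.19), adjusted p = 0.656. Isg15, a ubiquitin-like modifier, read 2.0, 1.44 and 1.91 CPM and 2.01, 2.13 and 2.48 CPM, with 0.29 (SE 0.22). Groups that do not overlap were thus found for 5 of 33 members (15.2%), at a background of 17.4% of all genes (9.04% higher and 8.37% lower). For Oasl2, an oligoadenylate synthetase-like protein, the values were 3.49, 2.48 and 2.77 CPM and 3.67, 4.13 and 3.41 CPM, with 0.34 (SE 0.20), adjusted p = 0.656. Ifi27 read 51.3, 34.9 and 58.8 CPM and 77.0, 54.0 and 53.9 CPM, with 0.34 (SE 0.21), adjusted p = 0.656, and its highest level was in the nicotine library with the choroid plexus and pituitary transcripts. Both Oasl2 and Ifi27 overlapped between the groups.

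Apart from Irf7, whose interval began at 0.00, all members at 7 months had intervals that reach across 0, those named above included. The class I chains lay at 0.06 (B2m), 0.20 (H2-K1) and 0.20 (H2-D1), with a 95% interval of -0.56 to 0.95 for H2-K1. Cd74 lay at -0.01 (SE 0.39) and H2-Aa at -0.17 (SE 0.51). Psmb8 was at -0.11, Nlrc5 at -0.41, Ciita at -0.30, Stat2 at 0.02, Ifit3 at 0.14 and Bst2 at 0.52. The upper ends for H2-K1 and H2-D1 were 0.95 and 0.98. Without saline library 2, 7 members changed sign (B2m, H2-K1, H2-D1, Tapbp, Irf8, Ifit1 and Ifit3). The class I chains then lay at -0.14 (B2m), -0.13 (H2-K1) and -0.13 (H2-D1), Ifit3 at -0.10 and Bst2 at 0.16. Leaving out nicotine library 1 too turned Bst2 to -0.15.

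At 18 months the libraries were more alike over all genes (common dispersion 0.00956, against 0.0417 at 7 months), and the intervals of most members were narrower. Some were wider, such as those of H2-Aa (-1.83 to 0.82, against -1.35 to 1.01) and Isg15 (-0.56 to 0.84, against -0.22 to 0.81). Again 0 of 33 members passed in edgeR, where 0.044% of 18196 genes did, and 0 passed in DESeq2 (background 0.184%). An unadjusted p under 0.05 was reached by 2 members, Irf8 and Psmb8, against 6.73% of all genes. The median of the members was -0.07 with 10 of 33 above 0 (30.3%, against 48.1% of all genes), and 13 of the 15 antigen presentation members lay below 0. Groups did not overlap for 3 members (Psmb8, Nlrc5 and Irf8, all lower in nicotine), 9.09% of the members at a background of 11.8% (6.62% higher and 5.15% lower).

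Irf8, a transcription factor needed by microglia and other myeloid cells, read 12.1, 11.2 and 13.8 CPM in saline and 10.5, 8.68 and 10.7 CPM in nicotine. Every nicotine library lay below every saline library, and the log2 fold change was -0.33 (SE 0.12), adjusted p = 0.653 (unadjusted p = 0.019). Psmb8, the immunoproteasome subunit also called LMP7, read 5.32, 5.26 and 4.99 CPM and 4.03, 4.62 and 3.83 CPM, with -0.33 (SE 0.13), adjusted p = 0.686. Nlrc5 read 2.77, 2.61 and 2.63 CPM and 2.42, 2.42 and 1.47 CPM, with -0.35 (SE 0.21), adjusted p = 0.839, where nicotine library 3 was the lowest. Beside these, 10 of 12 microglial markers had values below 0 at 18 months, among them Cx3cr1 at -0.34 (SE 0.07, adjusted p = 0.278). The summed microglial markers ranged from 614.1 to 714.9 CPM in saline and from 579.9 to 651.9 CPM in nicotine. Their part in the Irf8 and Psmb8 values was not tested.

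Rtp4, an interferon-induced receptor transporter protein, read 1.70, 1.57 and 2.27 CPM in saline and 1.44, 1.63 and 1.04 CPM in nicotine. Its log2 fold change was -0.44 (SE 0.24), adjusted p = 0.814. Bst2 was on the other side, at 3.04, 2.52 and 3.13 CPM and 4.28, 3.92 and 2.79 CPM, with 0.33 (SE 0.19), adjusted p = 0.825. H2-Ab1 read 1.70, 3.69 and 0.952 CPM and 1.36, 1.07 and 1.61 CPM, with -0.67 (SE 0.44), adjusted p = 0.86. The groups overlapped for all 3, and without saline library 2 the H2-Ab1 value was 0.02. Intervals for the class I chains were tight at this age: -0.23 to 0.08 for B2m, -0.36 to 0.08 for H2-K1 and -0.23 to 0.08 for H2-D1, around -0.07, -0.14 and -0.07. Stat2 was at -0.06 (SE 0.06), Irf7 at -0.06 (SE 0.29), Irf9 at -0.01 (SE 0.10), Isg15 at 0.14 (SE 0.31) and Ifit3 at 0.08 (SE 0.20). Cd74 was at -0.55, H2-Aa at -0.51, Ciita at 0.06, Oasl2 at -0.24 and Ifi27 at -0.11.

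**Figure D3:**
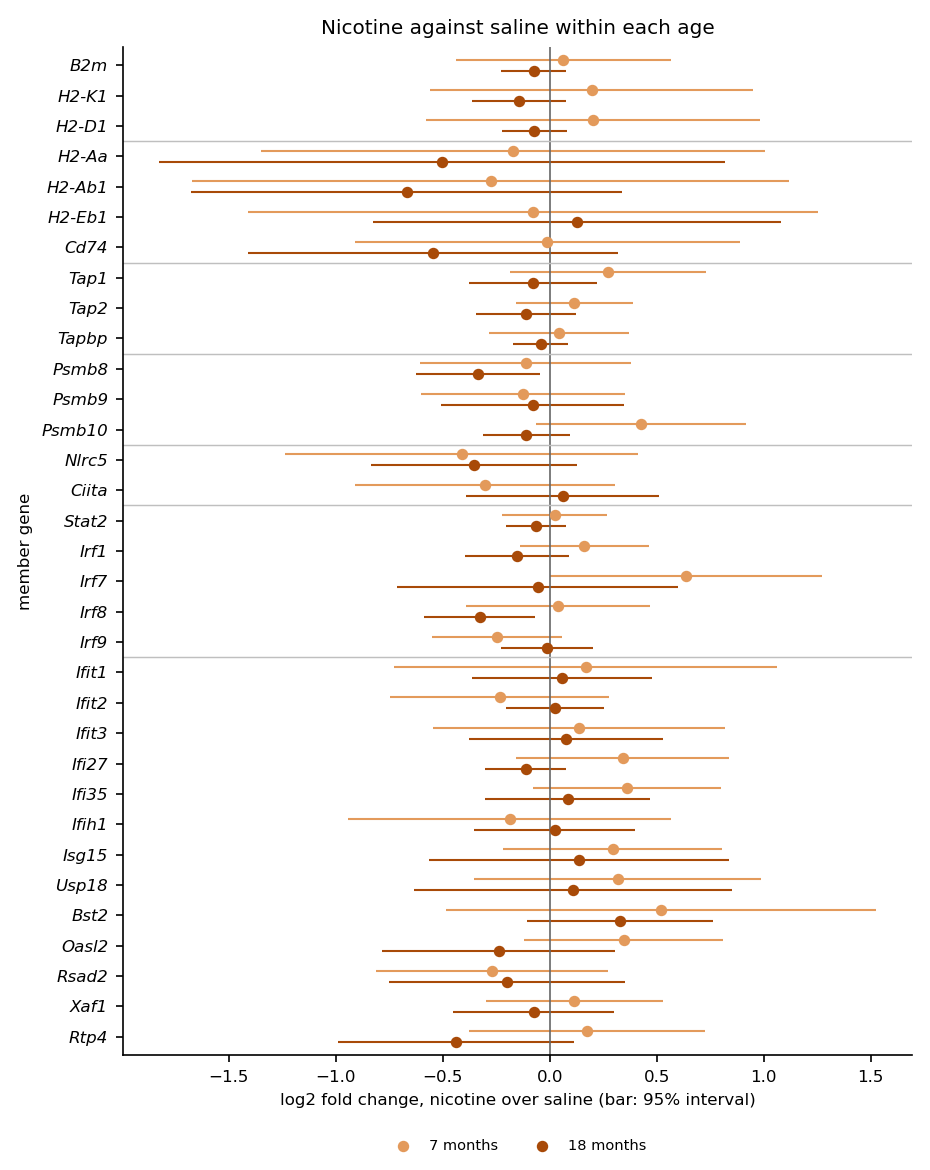
Log2 fold change of nicotine over saline for each member at 7 months (light) and 18 months (dark), with 95% intervals from the edgeR fit, ordered by role. No member passed the adjusted threshold at either age, and the class I intervals are narrower at 18 months.

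The sign of the nicotine effect was the same at both ages for 14 of 33 members (42.4%), against 47.5% of 16853 genes. It was above 0 at both ages for 6 members, below 0 at both for 8, above at 7 and below at 18 months for 15, and the reverse for 4. Averaged over both ages in a fit to all 12 libraries, 0 of 33 members passed, where 0.0365% of 19171 genes did, and DESeq2 called 0 (background 0.25%). No member had an unadjusted p under 0.05 there, against 6.86% of all genes, and the members' median was 0.01. The smallest p values belonged to Ifi35 (0.23 (SE 0.12)), Nlrc5 (-0.37 (SE 0.20)), Psmb8 (-0.21 (SE 0.13)), Bst2 (0.43 (SE 0.27)), Irf9 (-0.12 (SE 0.08)) and Irf7 (0.30 (SE 0.22)), each with an adjusted p of 0.722. The other members lay between -0.46 (H2-Ab1) and 0.23 (Usp18, Isg15), with H2-K1, H2-D1 and B2m at 0.04, 0.07 and 0.01.

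The difference of the nicotine effect between ages was tested directly, as the effect at 18 months minus that at 7 months. None of the 33 members passed, where 0.00522% of 19171 genes did. DESeq2 called 0 (background 0.11%), and no member had an unadjusted p under 0.05, against 7.85% of all genes. Psmb10 had -0.53 (SE 0.26), Irf1 -0.31 (SE 0.16), Rtp4 -0.61 (SE 0.34), Ifi27 -0.45 (SE 0.26) and Oasl2 -0.58 (SE 0.34), each with an adjusted p of 0.623. Irf8 had -0.36 (SE 0.22), adjusted p = 0.626. The other members lay between -0.69 (Irf7) and 0.36 (Ciita). The median over the members was -0.21, with 25 of 33 below 0, where 51.8% of all genes lay above 0 and their median was 0.02. Saline library 2 at 7 months, which stood apart, enters this difference. Without it the members' median was -0.05, with 12 of 33 above 0. Leaving out 7-month nicotine library 1 too took it to 0.01, with 17 of 33 above 0.

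The comparison of 18 with 7 months asks how the same genes differ between the 2 ages, within each infusion. In saline 9 of 33 members passed, 5 higher and 4 lower at 18 months, or 27.3%, where 46.1% of the 19171 genes tested passed (21.5% higher and 24.6% lower). In nicotine 11 passed, 5 higher and 6 lower, or 33.3%, where 59.3% of all genes passed (29.5% higher and 29.8% lower). Both infusions gave 7 members in the same direction (21.2%, against 40.8% of all genes): Nlrc5, Irf8 and Ifit2 higher, and Psmb10, Ifi27, Ifi35 and Isg15 lower. Groups did not overlap for 15 members in saline (45.5%, background 49.7%) and 17 in nicotine (51.5%, background 68.9%). The 2 comparisons use different libraries but the same pair of tables.

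Among transactivators, Nlrc5, which switches on class I genes, rose most of all members. It read 0.543, 1.13 and 0.673 CPM in saline at 7 months and 2.77, 2.61 and 2.63 CPM at 18 months. In nicotine it read 0.588, 0.602 and 0.582 CPM and 2.42, 2.42 and 1.47 CPM. Every 18-month library was above every 7-month library, and the log2 fold change was 1.78 (SE 0.28), adjusted p = 0.000657 in saline and 1.82 (SE 0.29), adjusted p = 0.000289 in nicotine. The class I chains that Nlrc5 is known to drive passed in neither infusion: H2-K1 had 0.36 (SE 0.27) and 0.02 (SE 0.27), H2-D1 0.39 (SE 0.28) and 0.12 (SE 0.28), and B2m -0.19 (SE 0.18) and -0.33 (SE 0.18). Without 7-month saline library 2 the saline values were 0.05, 0.08 and -0.38, and B2m then passed as lower (adjusted p = 0.0103). Ciita read 2.63, 2.17 and 2.60 CPM at 7 months and 4.15, 4.06 and 3.73 CPM at 18 months in nicotine, a rise of 0.69 (SE 0.24), adjusted p = 0.0254, and had 0.33 (SE 0.24), adjusted p = 0.266 in saline. The class II chains and Cd74, its targets, passed in neither infusion, with values from -0.73 to 0.42 in saline and from -0.51 to -0.10 in nicotine.

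In the immunoproteasome, Psmb10 fell. It read 42.5, 23.9 and 42.4 CPM at 7 months and 21.8, 18.3 and 22.7 CPM at 18 months in saline, and 44.1, 53.0 and 50.1 CPM and 19.3, 20.8 and 18.7 CPM in nicotine. Each 7-month library, including saline library 2, was above each 18-month library, with -0.80 (SE 0.18), adjusted p = 0.00484 in saline and -1.33 (SE 0.19), adjusted p = 0.000148 in nicotine. Psmb8 and Psmb9, the other catalytic subunits, passed in neither, at -0.05 (SE 0.18) and -0.38 (SE 0.18) in saline. In nicotine they lay at -0.27 (SE 0.18) and -0.34 (SE 0.19). The constitutive subunits that the immunoproteasome replaces fell too: Psmb7, the counterpart of Psmb10, with -0.92 (SE 0.12) in saline and -1.13 (SE 0.12) in nicotine, and Psmb6 and Psmb5 also passed as lower in both infusions. Of the peptide loading genes, Tap1 (0.41 (SE 0.17), adjusted p = 0.0631), Tap2 (-0.03 (SE 0.11), adjusted p = 0.863) and Tapbp (0.25 (SE 0.11), adjusted p = 0.0887) did not pass in saline, nor in nicotine.

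Among transcription factors, Irf8 read 6.88, 5.05 and 7.55 CPM at 7 months and 12.1, 11.2 and 13.8 CPM at 18 months in saline, and 6.33, 7.26 and 6.59 CPM and 10.5, 8.68 and 10.7 CPM in nicotine. All 18-month libraries were above all 7-month libraries, with 0.93 (SE 0.16), adjusted p = 0.000961 in saline and 0.57 (SE 0.16), adjusted p = 0.00865 in nicotine. Of the 12 microglial markers, 4 rose and 1 fell in saline (Cx3cr1 0.76 (SE 0.10), Cd68 0.75 (SE 0.24) and Aif1 -0.65 (SE 0.16)), and 3 rose and 3 fell in nicotine, while the summed markers ranged from 428.0 to 688.8 CPM at 7 months and from 579.9 to 714.9 CPM at 18 months. Their part in the Irf8 level was not tested. Stat2 read 31.9, 36.5 and 32.8 CPM and 40.3, 36.5 and 40.8 CPM in saline and passed there at 0.22 (SE 0.08), adjusted p = 0.0415. In nicotine its value was 0.13 (SE 0.08), adjusted p = 0.189. Irf1, which is induced mainly by interferon gamma, read 10.8, 12.4 and 12.5 CPM and 9.03, 9.51 and 10.9 CPM in nicotine, with -0.28 (SE 0.11), adjusted p = 0.0477, and 0.04 (SE 0.11) in saline. Irf7 (0.24 (SE 0.31) and -0.45 (SE 0.30)) and Irf9 (-0.21 (SE 0.11) and 0.02 (SE 0.12)) passed in neither infusion.

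Of the 13 induced effectors, 2 rose and 3 fell in saline (38.5% called, background 46.1%), and 2 rose and 4 fell in nicotine (46.2% called, background 59.3%). Ifit2, a member of the tetratricopeptide family that binds RNA and limits translation, read 4.48, 5.94 and 4.48 CPM at 7 months and 6.79, 6.57 and 7.25 CPM at 18 months in saline, and 5.23, 3.77 and 3.80 CPM and 7.16, 6.72 and 7.28 CPM in nicotine. It rose by 0.47 (SE 0.16), adjusted p = 0.0331 in saline and 0.72 (SE 0.16), adjusted p = 0.00252 in nicotine. Oasl2 read 3.49, 2.48 and 2.77 CPM and 4.42, 5.44 and 5.58 CPM in saline, a rise of 0.82 (SE 0.24), adjusted p = 0.0157. In nicotine it had 0.24 (SE 0.24), adjusted p = 0.41, with 18-month libraries from 3.07 to 6.2 CPM. Ifih1, the double-stranded RNA sensor MDA5, read 3.46, 2.05 and 1.47 CPM and 3.81, 4.34 and 4.44 CPM in nicotine, a rise of 0.84 (SE 0.27), adjusted p = 0.0171, and had 0.63 (SE 0.27), adjusted p = 0.0694 in saline. Usp18, which removes Isg15 from proteins and restrains the interferon receptor, was close to the threshold in saline at 0.87 (SE 0.34), adjusted p = 0.0516. Ifit1 (0.67 (SE 0.32) and 0.56 (SE 0.32)), Ifit3 (0.36 (SE 0.28) and 0.31 (SE 0.28)) and Rsad2 (0.47 (SE 0.23) and 0.54 (SE 0.24)) lay above 0 in both infusions and passed in neither.

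Among the effectors that fell, Ifi27 read 51.3, 34.9 and 58.8 CPM at 7 months and 34.2, 32.2 and 30.3 CPM at 18 months in saline, and 77.0, 54.0 and 53.9 CPM and 32.3, 31.2 and 26.7 CPM in nicotine, with -0.58 (SE 0.18), adjusted p = 0.0216 and -1.03 (SE 0.18), adjusted p = 0.000556. Ifi35 went from 4.72 ± 0.992 CPM (SD, n = 3) to 2.60 ± 0.315 CPM in saline and from 6.11 ± 0.156 to 2.78 ± 0.269 CPM in nicotine, with -0.86 (SE 0.18), adjusted p = 0.0027 and -1.14 (SE 0.18), adjusted p = 0.000264. Both genes had no overlap between ages. Isg15 read 0.804, 1.03 and 1.31 CPM in 18-month saline and 0.890, 1.63 and 0.993 CPM in 18-month nicotine, below the 7-month values given above, with -0.76 (SE 0.27), adjusted p = 0.0378 and -0.91 (SE 0.27), adjusted p = 0.0114. Rtp4 read 2.25, 2.97 and 2.02 CPM and 1.44, 1.63 and 1.04 CPM in nicotine and fell there (-0.81 (SE 0.24), adjusted p = 0.0132), and had -0.20 (SE 0.24) in saline. Bst2 (-0.65 (SE 0.38), adjusted p = 0.181 and -0.83 (SE 0.37), adjusted p = 0.0709) and Xaf1, an inhibitor of an anti-apoptotic protein (-0.13 (SE 0.17) and -0.32 (SE 0.17)), did not pass.

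**Figure D4:**
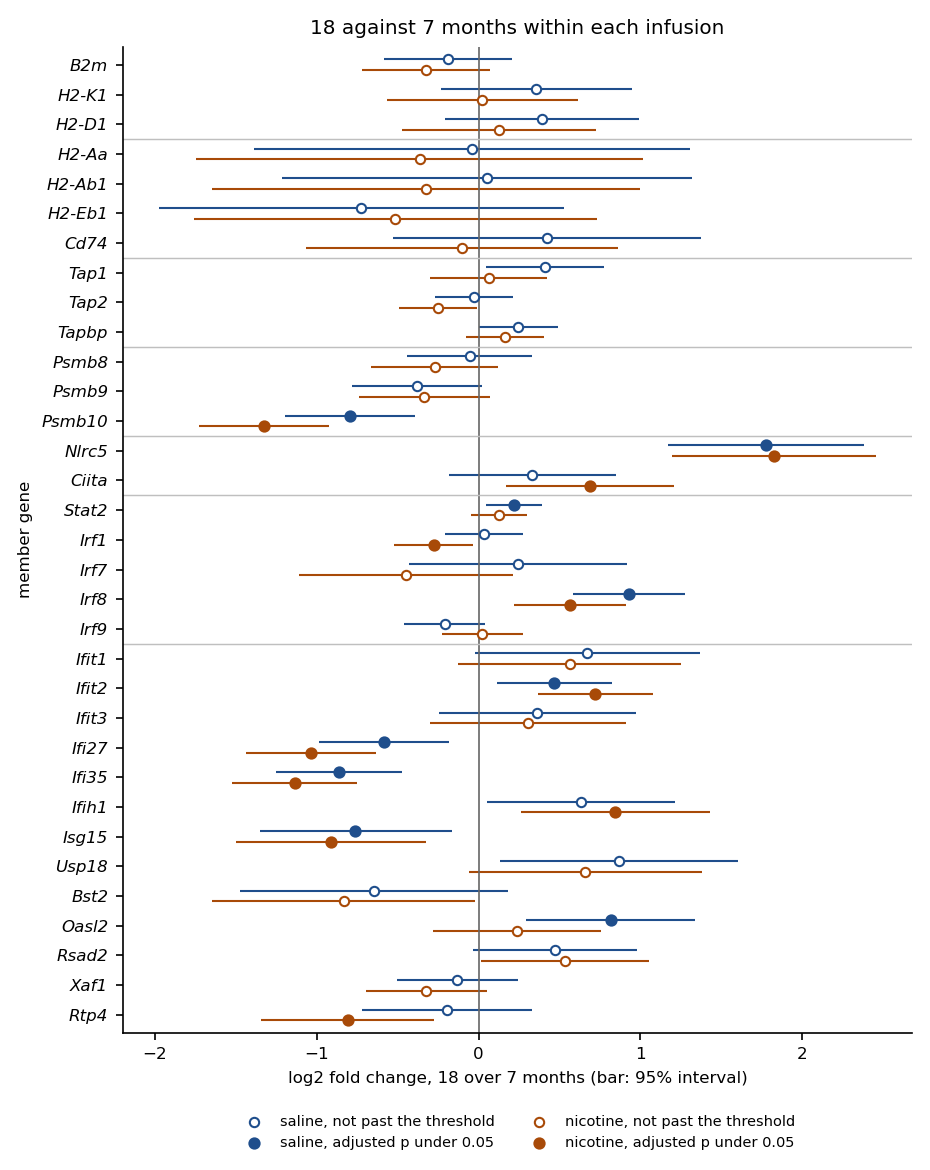
Log2 fold change of 18 over 7 months for each member in saline (blue) and nicotine (orange), with 95% intervals. Filled points passed the adjusted threshold, which were 9 members in saline and 11 in nicotine.

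The direction of the age difference went with transcript length. The 7 members that passed as higher in either infusion have transcripts of 3123 to 7578 nt, and the 6 that passed as lower have transcripts of 756 to 2137 nt. Of all 33 members, 16 have transcripts of up to 2137 nt and 13 of 3123 nt or more. Spearman's rho of the age difference with length was 0.57 in saline and 0.69 in nicotine over the 33 members, and 0.42 and 0.48 over 16200 genes with a length. The 7-month nicotine effect had a rho of -0.52 over the members and -0.44 over 15453 genes, and the 18-month effect -0.12 and 0.08. With offsets that take out the relation with length and GC content in each library, 12 members passed in saline, 9 higher and 3 lower (background 39.5%), and 11 in nicotine, 6 higher and 5 lower (background 48.6%). The 16198 genes that have a length gave the same counts of members without offsets, 12 and 11 (backgrounds 44.0% and 58.7%), though not the same members. The higher genes made up 35.7% of all calls in saline and 38.2% in nicotine with offsets, against 50.1% and 50.5% for the same genes without them and 46.6% and 49.8% over the 19171 genes. Nlrc5 then had 1.35 (SE 0.24) and 1.22 (SE 0.25), Irf8 0.99 (SE 0.15) and 0.64 (SE 0.15), and Psmb10 -0.53 (SE 0.12) and -0.86 (SE 0.12), all past the threshold. Under the offsets H2-D1 passed as higher in both infusions (0.70, adjusted p = 0.02, and 0.56, adjusted p = 0.043). Tapbp and Usp18 did too. Tapbp, Usp18 and Tap1 also passed as higher in saline on the same genes without offsets. Under the offsets Tap1 (0.49, adjusted p = 0.026) and H2-K1 (0.63, adjusted p = 0.032) passed as higher in saline. Stat2 and Isg15 in saline and Ciita, Ifih1 and Irf1 in nicotine then missed the threshold, of which Isg15 in saline and Irf1 in nicotine missed it on the same genes without offsets too. For these members age, preparation and transcript length cannot be told apart.

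**Figure D5:**
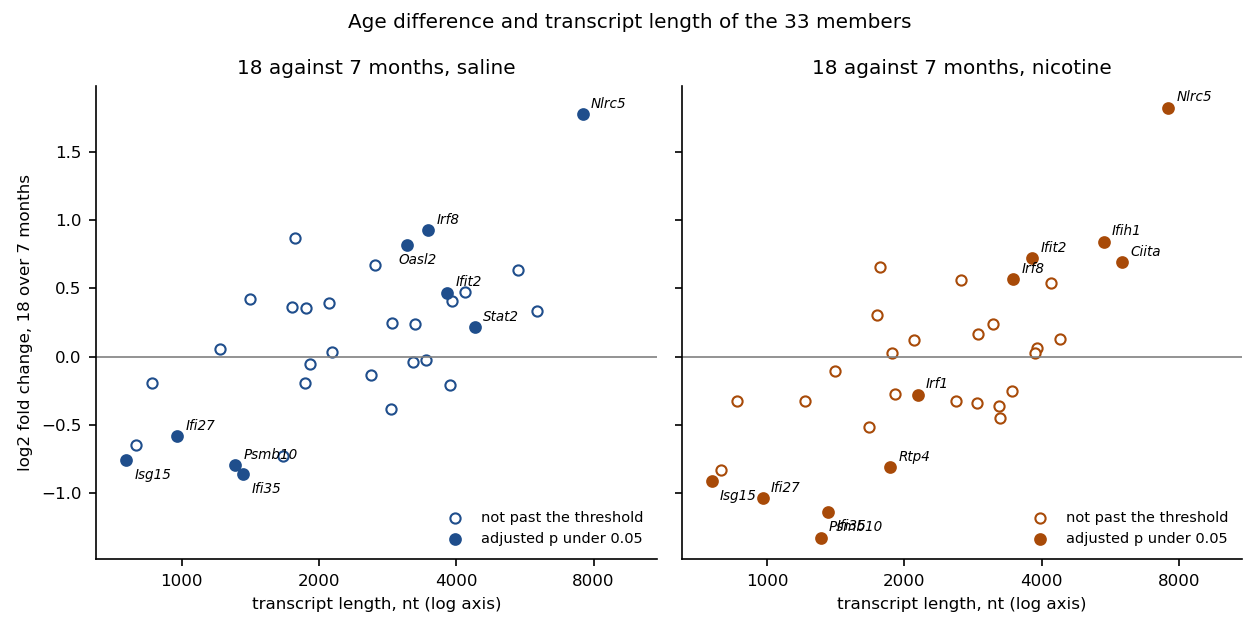
Log2 fold change of 18 over 7 months against transcript length on a log axis, for the 33 members in saline (left) and nicotine (right). Named filled points passed the adjusted threshold, and those below 0 are all at 2137 nt or less, those above 0 all at 3123 nt or more.

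DESeq2 called 9 members in saline and 10 in nicotine, at backgrounds of 27.1% and 34.8% of 33550 genes. Those genes had not been filtered on low counts. The edgeR backgrounds of 46.1% and 59.3% were over the 19171 genes that passed the filter, so the shares of the 2 methods are not alike. Across the alternatives tried, Psmb10, Nlrc5, Irf8 and Ifi35 passed in all 15 for saline, and Psmb10, Nlrc5, Irf8, Ifit2, Ifi27 and Ifi35 in all 15 for nicotine. Nlrc5 ranged from 1.35 to 2.16 in saline and from 1.22 to 2.01 in nicotine, and Psmb10 from -0.99 to -0.53 and from -1.40 to -0.86. Stat2 lost its call in saline under 9 of 15 alternatives, as did Ifit2 and Isg15, Ifi27 under 6 and Oasl2 under 2. In nicotine Irf1 lost it under 10 and turned to 0.04 under the offsets, and the call was lost for Ciita and Ifih1 under 5 each, Rtp4 under 2 and Isg15 under 1.

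Genes of the same pathways outside the 33 were read from lists. In the 4 nicotine comparisons none of them passed in edgeR: neither receptors and signalling (18 tested), nucleic acid sensing (15), other interferon-stimulated genes (54 at 7 months, 56 at 18 months and 58 in the fits to all 12 libraries), other antigen processing and class I genes (22) nor other class II genes (17 at 7 months, 16 at 18 months). At an unadjusted p under 0.05, 6 of these 126 genes were counted at 7 months, 9 of 127 at 18 months, and 8 of 130 in each of the other 2 comparisons, where 6.5%, 6.73%, 6.86% and 7.85% of all genes were, in the order of the comparisons above. DESeq2 called 0 list genes in each of the 4. Their medians lay between -0.10 and 0.06 at 7 months and between -0.07 and 0.04 at 18 months.

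With age the lists held changes in both directions. Of 58 other interferon-stimulated genes, 10 rose and 3 fell in saline (22.4% called), and 16 rose and 5 fell in nicotine (36.2% called). Of all genes, 46.1% passed in saline (21.5% higher) and 59.3% in nicotine (29.5% higher). Parp14, an ADP-ribosyltransferase, rose by 0.89 (SE 0.15) in saline and 1.30 (SE 0.15) in nicotine, and Eif2ak2, the double-stranded RNA kinase PKR, by 1.28 (SE 0.22) and 1.55 (SE 0.22). The guanylate-binding protein Gbp7 rose by 0.97 (SE 0.21) and 1.47 (SE 0.21), while Ifitm1, a membrane protein that hinders virus entry, fell (-1.86 (SE 0.47) and -1.40 (SE 0.43)). Of 18 receptor and signalling genes, 4 rose and 1 fell in saline and 7 rose and 2 fell in nicotine, with Irf3 lower in both (-0.97 (SE 0.13) and -1.08 (SE 0.13)). Of 15 nucleic acid sensing genes, 3 rose and 1 fell in saline (26.7%) and 6 rose and 1 fell in nicotine (46.7%). Tlr9, the sensor of unmethylated DNA, rose by 1.94 (SE 0.26) and 1.92 (SE 0.27).

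Of the other antigen processing and class I genes, more passed as lower than as higher with age. Of 22 tested, 5 rose and 9 fell in saline and 4 rose and 10 fell in nicotine, so 63.6% passed in each. Calr, the chaperone calreticulin, fell (-0.91 (SE 0.13) and -0.92 (SE 0.13)), as did the proteasome activator subunits Psme1 and Psme2, and the nonclassical class I gene H2-T24 rose (1.77 (SE 0.28) and 2.0 (SE 0.28)). Of 17 other class II genes, 1 rose and 5 fell in saline (35.3%) and 3 rose and 6 fell in nicotine (52.9%). H2-DMa, which helps load class II molecules, fell (-0.60 (SE 0.16) and -0.67 (SE 0.16)), as did Rfxank, a subunit of the complex that recruits Ciita (-0.71 (SE 0.12) and -0.77 (SE 0.12)). The shares of all genes that passed, 46.1% in saline and 59.3% in nicotine, are the background for each of these counts. Over all genes with a length, the age difference followed transcript length, with a Spearman rho of 0.42 in saline and 0.48 in nicotine. The part of length in the directions of the list genes, here and above, was not tested.

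Some members share sequence with other genes, and their counts are uncertain to that extent. H2-D1 is 96.4% identical to H2-Q7 over 280 nt, Ifit3 97.8% to Ifit3b over 1700 nt, and Isg15 95.2% to another locus over 482 nt. Rtp4 shares 296 identical bases with Gm45338 on the same strand, and Tapbp 297 identical bases with Gm19412. In all, 14 members share exonic bases with another annotated gene, 11 of them with one on the opposite strand. Tap1 and Psmb9 lie head to head on chromosome 17 and share 212 exonic bases on opposite strands in GENCODE, where the start of Psmb9 at 34187764 lies inside Tap1, so without strand information reads there cannot be assigned. The interval of 225 bases between their RefSeq starts, chr17:34187331-34187555 on GRCm38.p6, written along the plus strand in the direction of Tap1, is shown because it lies between those starts, and it holds no match to the double GAAA motif.
Tap1-Psmb9: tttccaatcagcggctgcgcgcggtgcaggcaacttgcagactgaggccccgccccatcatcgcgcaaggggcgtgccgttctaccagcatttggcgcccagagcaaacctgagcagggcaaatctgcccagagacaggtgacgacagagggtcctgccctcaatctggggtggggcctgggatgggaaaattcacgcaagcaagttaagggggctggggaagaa
Tap1 and Psmb9 had age differences of 0.41 and -0.38 in saline and 0.06 and -0.34 in nicotine, none past the threshold.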

How the data were processed

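Hippocampal RNA was sequenced in 12 libraries, 3 in each of 4 groups taken from the labels. The authors deposited raw counts of fragments for each gene in 1 table for each age, not normalized. The aligner was TopHat and the genome GRCm38, per the submitters' processing notes. The counting tool, annotation, strand setting and versions are not given in the sources used here, and the labels' protocol describes a small RNA kit although the counts cover mRNA. No column of other samples was used.

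Counts were tested with the quasi-likelihood test of edgeR 4.0.16 in R 4.3.3, with TMM scaling, the filterByExpr filter and Benjamini-Hochberg adjustment over all genes tested at 0.05. Nicotine was compared with saline within an age from its 6 libraries, and the other 4 comparisons came from 1 fit of 4 group means to all 12 libraries. SEs were derived from the log2 fold change and its F statistic, and intervals are at 95%. With 3 against 3 libraries an exact permutation test can reach 0.1 at best and was not used. Alternatives were RLE scaling, no filter, the Wald test of DESeq2 1.42.0, the replicate number as a block, per-library offsets for GC content and transcript length (4-df splines), the same genes without offsets (chosen after seeing the data), and fits without 1 or 2 libraries. Same-numbered libraries did not deviate together from their group means within an age (r from -0.098 to 0.083 across genes), so numbers were not treated as pairs. The procedure was tested on simulated data.

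Gene positions and lengths came from GENCODE vM21 (30971 of 44760 genes matched by name) and promoters from RefSeq on GRCm38.p6. The length of a gene is that of its longest transcript. Shared sequence was searched with BLAST 2.17.0, keeping alignments of 200 nt or longer with 95% identity or higher. Members named in full were those that passed (the 10 with the largest change) or, where none passed, the 6 with the smallest p; 16 members were followed in every comparison, and lists by counts with up to 4 genes named. Some genes named beside these (Psmb7, Psmb6, Psmb5, Psme1, Psme2, Ifitm1, Tyrobp, Cd68, Ms4a1 and Usp18) were chosen after their values were seen. The members and the lists were chosen with earlier results of these data known.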

Additional observations from a re-analysis of the deposited data

How the results depend on the processing

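In the 4 nicotine comparisons the number of members past the threshold was 0 in every setting run, DESeq2 and the replicate block included. For 18 against 7 months in saline, 9 members passed, and the count moved to 14 without 7-month saline library 2 and nicotine library 1 and to 4 without both 7-month libraries numbered 3. The share of all genes that passed moved with it, from 46.1% to 61.9% and 30.3%. Leaving out 1 library at a time gave 5 to 12, with 5 without 18-month saline library 3 or 7-month saline library 3 (34.4% and 33.3% of all genes) and 12 without 7-month saline library 2 (60.4%). In nicotine, 11 passed, and leaving out 1 library gave 7 to 11, with 7 without 7-month nicotine library 2 (53.3% of all genes, against 59.3%). The count in nicotine was 15 without 7-month saline library 2 and nicotine library 1 (62.2% of all genes). It was 8 without both 7-month libraries numbered 3 (53.5%). With the replicate number as a block, 8 members passed in saline and 10 in nicotine; the numbers do not pair the samples. In the fits without 1 library, the smaller group is assumed to vary like the others. Of the members named by rule in a comparison, 3 values changed sign: Ifi27 at 7 months was -0.02 without saline library 2 and nicotine library 1, H2-Ab1 at 18 months was 0.02 without saline library 2 (and -1.01 without saline library 3), and Irf1 with age in nicotine was 0.04 under the offsets. Over all 33 members, leaving out 1 library changed the sign of 3 to 7 at 7 months and of 2 to 5 at 18 months, none of them past the threshold. The cause was not tested. Over the named members, 665 values kept direction and side of the threshold and 58 lost the call. The all-gene median of the age comparisons was -0.03 in both infusions, 0.01 in both with RLE scaling, 0.01 and 0.02 without the filter, and 0.08 in saline and 0.10 in nicotine with DESeq2, which also tested more genes. Depth limits the low members: the lowest count in a library was 13 to 19 for H2-Aa, H2-Eb1, Nlrc5, Isg15 and Ifit1.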

Other observations

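At 18 months the highest and the lowest levels of several interferon response genes lay in the same group, nicotine. Nicotine library 3 was the lowest of the 6 libraries of that age for 14 of 33 members (42.4%, against 15.6% of all genes tested), and 28 of its 33 departures were below 0, with a median of -0.13 against 0.01 for all genes. Nicotine library 2 was the highest for 7 of the 18 interferon response members, or 38.9%, against 15.4% of all genes. Usp18 read 3.12 CPM in library 2 and 1.13 CPM in library 3, where the 18-month saline libraries lay between 1.68 and 2.10 CPM. Oasl2 read 6.2 and 3.07 CPM in the same libraries, Irf7 2.71 and 1.28 CPM, and Ifit3 8.95 and 5.01 CPM. For these 4 genes the saline libraries of that age lay between the 2 nicotine libraries. Saline library 3 was the highest for 8 of the 15 antigen presentation members, but the lowest for Cd74 and the 3 class II chains. These libraries were singled out after their values were seen, and no test was made.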
